A study of Rattus norvegicus with 27 samples.

Results

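Dedifferentiated and differentiated rat Schwann cells were compared across all expressed genes, in 6 of the 27 libraries of the series, 3 at each stage. Both groups were cultures of commercial primary Schwann cells from *Rattus norvegicus*, used at passages 3 to 5. The labels give no strain, age or sex. They call the samples biological replicates and do not say whether these came from separate animals or cell lots, so p-values measure the spread between these cultures. By the treatment protocol in the labels, differentiated cells had been held for 72 h in DMEM with 1% exosome-depleted serum and 1 mM dibutyryl cyclic AMP (dbcAMP), a cyclic AMP analogue that enters cells. The series' design text names a Schwann cell basal medium there in place of DMEM, and which was used is not settled by the sources used here. Dedifferentiated cells had the same treatment and then 72 h without dbcAMP in a complete medium of rat Schwann cell basal medium, 10% exosome-depleted serum, forskolin and 10 ng/mL human neuregulin 1. Forskolin switches on adenylyl cyclase, the enzyme that makes cyclic AMP, and neuregulin is the axonal ligand of the Schwann cell receptors ErbB2 and ErbB3. By that protocol the stages differ in their medium and in their time in culture as well. Loss of dbcAMP cannot be told apart from the gain of serum, forskolin and neuregulin or from the further 72 h. The 3 undifferentiated mRNA libraries, from cells that received no dbcAMP, entered the same fit and are quoted for their levels only.

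Schwann cells are the glia of peripheral nerves. Cyclic AMP signalling, through protein kinase A and the transcription factor CREB, is one of the cues that turns cultured Schwann cells towards myelin, the lipid-rich sheath around axons, by way of the regulators Pou3f1 (Oct6) and Egr2 (Krox20). After nerve injury, Schwann cells leave the myelinating state, switch on Jun, and make trophic factors and guidance molecules for regrowing axons. Phosphodiesterases break cyclic AMP down, and the genes of several of them are themselves induced by cyclic AMP.

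Of 17315 genes in the table, 10372 passed the filter on low counts and were tested. Each of the 6 libraries had between 10058735 and 16212278 estimated counts over 11456 to 11831 detected genes. Levels are given as CPM, the count relative to the TMM-scaled library total, and 3 counts correspond to 0.185 to 0.298 CPM. Log2 CPM values correlated at 0.981 to 0.992 between libraries of a stage and at 0.907 to 0.920 between the stages, as a description over genes. At a Benjamini-Hochberg adjusted p under 0.05 in edgeR's quasi-likelihood test, 4809 genes were called, which is 46.4% of those tested. Of these, 2405 (23.2%) were higher and 2404 (23.2%) were lower in dedifferentiated cells. For 6081 genes (58.6%) every library of one stage lay above every library of the other. Because calls were this common, each list of genes is read below against these shares. Of the 38 pathway lists 19 had a median log2 change within 0.3 of 0, and for 17 of these it changed sign or moved by over 1.5 times when 1 library was left out, so no direction is read from such medians.

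Most of the calls were small. The median absolute log2 change over all tested genes was 0.36, and 3197 of the 4809 calls (66.5%) lay within a log2 change of 1 in either direction. A change above log2 1 was seen in 861 called genes that rose and 751 that fell, and one above log2 5 in 33 that rose and 40 that fell. At the other end, the 95% interval of the change lay within 0.5 on the log2 scale for 3242 genes (31.3%). *Vim*, which encodes the intermediate filament vimentin, was among the steadiest, at 20494, 17785 and 17233 CPM in differentiated and 18762, 18589 and 18089 CPM in dedifferentiated libraries (95% interval of the log2 change -0.26 to 0.25). The genes that rose made up 18.4% of all CPM in differentiated and 33.1% in dedifferentiated cells. Those that fell went from 37.7% to 23.5%.

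**Figure D1:**
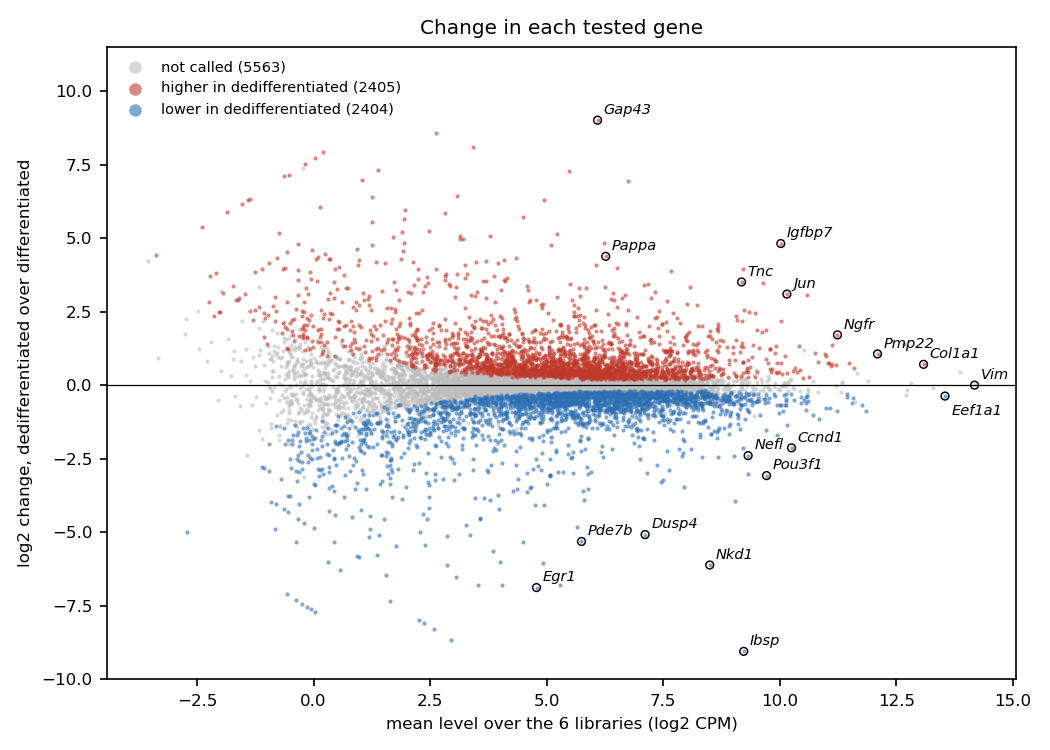
Log2 change (y axis, dedifferentiated over differentiated) against mean level over the 6 libraries (x axis, log2 CPM) for each tested gene. One point is 1 gene, coloured by its edgeR call, 18 genes are labelled, and 1 tested gene with no count in these libraries is not drawn. The 2405 genes that rose and the 2404 that fell lie on both sides of 0 over the whole range of levels.

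The genes with the smallest p among those that rose were low under dbcAMP and higher both before it and after it. *Gap43*, a growth-cone protein of regenerating neurons and repair Schwann cells, was at 0.442, 0.377 and 0 CPM in differentiated libraries and at 164, 126 and 118 CPM in dedifferentiated ones, against 843 CPM on average in undifferentiated cells. Its log2 change was 9.01 (SE 0.33; edgeR adjusted p = 3.34e-08), the stages were far apart in every library, and without differentiated replicate 3 it was 8.34. *Sorbs2*, an adaptor of stress fibres and focal adhesions, went from 6.93, 6.93 and 8.52 to 127, 118 and 134 CPM (4.07 on the log2 scale, edgeR adjusted p = 5.64e-09, SE 0.10). *Pappa*, a secreted protease that cuts IGF-binding protein 4, went from 6.26, 7.0 and 7.8 to 137, 147 and 157 CPM (4.38, SE 0.11; edgeR adjusted p = 5.64e-09). In both genes the replicates of a stage lay within a narrow band and the undifferentiated mean was higher still, at 297 and 374 CPM. *Pcdh20*, a protocadherin, rose from 1.74 to 213 CPM, the phospholipid transporter gene *Abcb4* from 24.4 to 262, and the lysosomal lipase gene *Lipa* from 23.4 to 249.5. *Gpc1*, a heparan sulfate proteoglycan, rose from 329 to 2749 CPM and the kinase gene *Lrrk2* from 19.2 to 146. Further genes of large change started under about 1 CPM. These were *Baiap2l1*, which shapes cell membranes, at 0.589, 0.753 and 1.08 then 35.6, 51.0 and 45.6 CPM, *Mpped2* at 0.23 then 13.8 on average, and the potassium channel subunit gene *Kcng1* at 0.221, 0.226 and 0.36 then 19.1, 7.53 and 5.74 CPM, where dedifferentiated replicate 1 was the highest. *Ptprt*, a receptor phosphatase, had 1 count, in replicate 1, over the differentiated and 444 in dedifferentiated libraries, a ratio of 545 (95% interval 97.2 to 21558, counting error only). A few genes were near 0 at both other stages. *Ddn*, which encodes dendrin, was at 0.255, 0.0987 and 0.392 CPM in undifferentiated, 1.4, 0.301 and 0.6 in differentiated and 78.8, 51.8 and 51.9 CPM in dedifferentiated libraries. *Mt3*, a metallothionein, was at 0, 0.197 and 0, then 0.442, 0 and 0.12, then 23.5, 13.1 and 13.8 CPM. In these 2 genes the dedifferentiated libraries stood above all 6 others.

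Among the genes that fell, several had been close to absent before dbcAMP. *Ibsp*, a bone-matrix sialoprotein, was at 1043, 1619 and 920.4 CPM in differentiated and 2.46, 2.28 and 1.99 CPM in dedifferentiated libraries (log2 change -9.06, SE 0.27; edgeR adjusted p = 9.6e-09). Its undifferentiated libraries were at 0.764, 0.987 and 0.587 CPM (mean 0.78). The 3 dedifferentiated values lay above all of these and far under dbcAMP-treated cells. *Nuak1*, an AMPK-related kinase, went from 110.4, 111 and 106 to 9.32, 10.3 and 8.69 CPM, and *Icam5*, an adhesion molecule, from 96.1, 70.5 and 63.5 to 1.19, 0.495 and 0.368 CPM. *Hsd17b11*, which codes for a lipid-droplet dehydrogenase, fell less far, from 968 to 220.3 CPM, and stayed above its undifferentiated mean of 83.4. *Nudt9* and *Eif1b* also fell and stayed above their undifferentiated means, with log2 changes of -2.18 and -2.42. *Kcnq1*, a potassium channel gene, was at 6.85, 28.2 and 11.0 CPM in differentiated libraries and had 1 count in total in dedifferentiated ones, with differentiated replicate 2 the highest. The proteoglycan gene *Bcan* likewise had 1 count after withdrawal, in replicate 3, against 515 before, a ratio of 420 (75.0 to 16616, counting error only). The receptor phosphatase gene *Ptprv* went from 41.3, 26.7 and 30.3 to 0.254, 0.396 and 0.221 CPM, the GTPase gene *Rrad* from 11.1, 18.3 and 14.0 to 0.0847, 0.0991 and 0.368, the surface glycoprotein gene *Cd24* from 23.4, 13.8 and 11.9 to 0, 0.297 and 0.221, and *Tyrp1*, a pigment-cell enzyme gene, from 33.8, 22.1 and 12.8 to 0.508, 0 and 0.0737 CPM. All 4 were under 1 CPM in every dedifferentiated library. *Dos* fell from 347 to 46.8 CPM. In absolute terms the largest losses in CPM were those of *Eef1a1*, a translation elongation factor, *Col5a3*, *Col4a1*, *Ccnd1* and *Lamc1*, and the largest gains included those of *Col1a1*, *Pmp22*, *Ngfr* and *Gpc1*, by the rule used to name genes.

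Phosphodiesterase genes were among the strongest responders and went in both directions. Of 13 tested, 7 fell, 4 rose and 2 were not called (84.6% called; median log2 change -1.14, against -0.01 for all tested genes and -0.54 over the 10 members with at least 10 counts in all 9 libraries). *Pde7b*, a cyclic AMP-specific enzyme, was at 96.3, 112 and 106 CPM in differentiated libraries and 2.8, 2.18 and 2.8 CPM in dedifferentiated libraries. Its log2 change was -5.32 (SE 0.15; edgeR adjusted p = 7.33e-09), and every dedifferentiated value was under 3 CPM. *Pde4d* went from 60.3, 61.5 and 58.2 to 9.15, 6.34 and 5.97 CPM (-3.07, SE 0.17; edgeR adjusted p = 3.49e-07), *Pde10a* from 109.5 to 14.1 and *Pde4b* from 59.9 to 7.17 CPM. *Pde3a* was at 10.2, 11.1 and 9.67 CPM under dbcAMP and had 1 count, in replicate 1, in all dedifferentiated libraries together, a ratio of 364 (95% interval 64.9 to 14394, counting error only). Except for *Pde7a*, a relative of *Pde7b*, the enzymes that rose belong to other families than those that fell. *Pde1c*, which is activated by calcium and calmodulin, went from 13.1, 12.9 and 14.8 to 148, 132 and 134 CPM (log2 change 3.34, SE 0.11; edgeR adjusted p = 1.76e-08). *Pde2a* and *Pde5a*, which bind cyclic GMP, and *Pde7a* rose by log2 2.26, 1.22 and 1.51, the first of them from 0.295, 0.828 and 2.1 CPM. Without differentiated replicate 3 the change in *Pde2a* was 3.23. *Pde8a* was not called (0.13; edgeR adjusted p = 0.403). Dedifferentiated levels of *Pde1c* and *Pde4d* lay beside the undifferentiated means of 139 and 7.2 CPM.

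The genes that make cyclic AMP or carry its signal were mostly near the background rate. Of 21, 6 rose, 4 fell and 11 were not called (47.6% called; median 0.11). Those that moved included *Adcy5* (log2 change 2.10) and *Adcy8* (from 0.147, 0 and 0.18 to 12.1, 5.84 and 5.16 CPM), which are adenylyl cyclases, and *Akap6*, a scaffold of protein kinase A (4.33). *Gnas*, the stimulatory G protein subunit, rose from 433 to 746 CPM, and *Prkar1a*, a regulatory subunit of protein kinase A, fell from 458 to 334. Of 18 genes known to respond to cyclic AMP or CREB, 9 fell, 2 rose and 7 were not called (61.1% called; median -0.56, or -0.34 without differentiated replicate 2 and -0.87 without dedifferentiated replicate 1). The list shares 5 phosphodiesterases with the one above, all among the 9 that fell. Outside these, *Nr4a1*, an orphan nuclear receptor, went from 421, 843 and 367 CPM to 72.6, 116 and 111 CPM. Its log2 change was -2.44 (SE 0.33; edgeR adjusted p = 0.000186), and differentiated replicate 2 stood above the other differentiated libraries. *Per1*, a clock gene, was not called at -0.29 (edgeR adjusted p = 0.0846).

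CREB binds the palindrome TGACGTCA, the cyclic AMP response element (CRE), so promoters were searched for it. RefSeq promoters of build GRCr8, each of 300 bases around the most upstream annotated start, were matched to 8471 of the 10372 tested genes. The CRE, which reads the same on both strands, occurred in 4.58% of 1965 promoters of genes that fell, in 2.32% of 1943 of genes that rose and in 3.48% of 4563 of genes not called. It occurred in 1.91% of all 27457 RefSeq promoters of this length. Its core TGACG, which every CRE contains, was found on either strand in 34.5%, 29.7% and 34.5% of the 3 groups. The AP-1 element TGANTCA occurred in 4.38% of promoters of genes that fell, 5.46% of those that rose and 4.23% of those not called. The TEAD element GGAATG occurred in 10.8%, 11.8% and 10.7%. Both were searched on either strand, and over all RefSeq promoters they occurred in 7.3% and 13.8%. Median GC content was 61.3% in promoters of genes that fell and 62.3% in those of genes that rose. Of 11 cyclic AMP responsive genes and phosphodiesterases that fell, 8 had a promoter in the table, none of these held the CRE within it, and 4 held the core. Those letters are matches in a fixed window and no measure of binding. By the rule for naming, 5 called genes of the lists held the CRE upstream of the start. Their windows of 60 bases are shown, 5′ to 3′ on the gene's strand with the CRE in capitals, since they place the element in genes of both directions.
Ldha (fell; chr1:106508015-106508074, plus strand): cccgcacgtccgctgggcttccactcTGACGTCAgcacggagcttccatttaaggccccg
Rpl13 (fell; chr19:68062399-68062458, plus strand): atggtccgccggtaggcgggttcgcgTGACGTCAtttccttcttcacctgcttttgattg
Elovl5 (fell; chr8:87671090-87671149, plus strand): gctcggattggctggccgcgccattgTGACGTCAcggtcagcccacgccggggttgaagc
Cdkn2b (rose; chr5:109134918-109134977, minus strand): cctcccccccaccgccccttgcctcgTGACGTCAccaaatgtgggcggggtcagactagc
Ltbp1 (rose; chr6:26177376-26177435, minus strand): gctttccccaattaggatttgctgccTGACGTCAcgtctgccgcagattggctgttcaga
The CRE began 51 bases before the annotated start in *Ldha*, which codes for lactate dehydrogenase A, 89 in the ribosomal protein gene *Rpl13* and 48 in *Elovl5*, a fatty acid elongase. It began 96 bases before that of *Cdkn2b*, a cell cycle inhibitor, and 108 before that of *Ltbp1*, a binding protein of latent TGF-beta. The log2 changes of these genes were -0.86, -0.65, -0.73, 1.17 and 2.90 in that order.

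The list of genes known to respond to the ERK branch of MAP kinase signalling had the most negative median of the 38 pathway lists. Of 21 feedback regulators and ETS-family targets, 14 fell, 2 rose and 5 were not called (76.2% called; median -1.52). *Dusp4*, a phosphatase that switches off ERK, went from 244, 309 and 252 to 8.22, 6.54 and 8.76 CPM (log2 change -5.09, SE 0.42; edgeR adjusted p = 5.91e-06). *Dusp6*, another ERK phosphatase, went from 255, 393 and 302 to 17.9, 39.1 and 40.6 CPM (-3.28, SE 0.74; edgeR adjusted p = 0.00435). For neither gene did the stages overlap. The ETS factors *Etv5* and *Etv4* had log2 changes of -2.78 and -3.85, the latter -4.46 without dedifferentiated replicate 3, and *Myc*, a growth regulator, went from 183, 333 and 239 to 24.6, 36.5 and 33.4 CPM. *Ccnd1*, cyclin D1, fell from 1984 ± 294 to 452 ± 24.3 CPM (SD, n = 3) and *Epha2*, an ephrin receptor, from 117 to 27.9. The exceptions were *Plaur*, the urokinase receptor, and *Dusp7*, which rose. Undifferentiated means were 5.31 CPM for *Dusp4*, 15.1 for *Etv5* and 125 for *Ccnd1*. ERK activity itself was not measured in these libraries. The part of dbcAMP, serum, forskolin or neuregulin in these falls was not tested.

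Immediate early genes split. Of 18, 7 rose, 6 fell and 5 were not called (72.2% called; median -0.21, which turned to 0.35 over the 15 members with at least 10 counts in all 9 libraries). *Jun*, the AP-1 factor that marks repair Schwann cells, went from 267, 252 and 196 to 1857, 2177 and 2068 CPM (log2 change 3.10, SE 0.17; edgeR adjusted p = 3.29e-07). *Atf3*, a stress and injury factor, went from 92.0, 204 and 103 to 1289, 1574 and 1542 CPM (3.47; edgeR adjusted p = 1.58e-05), and *Fosl2* and *Klf2* rose by 3.03 and 4.10. Their undifferentiated means were 2443, 1422, 184 and 13.2 CPM. The opposite held for *Egr1*, at 10.2, 137 and 16.6 CPM in differentiated and 0.678, 0.0991 and 0.516 CPM in dedifferentiated libraries. Differentiated replicate 2 was the highest of these by a wide margin. The log2 change of *Egr1* was -6.89 (SE 1.64; edgeR adjusted p = 0.00602) and -4.88 without that library. *Egr3*, at 25.4, 119 and 35.1 against 0.678, 0.892 and 1.1 CPM, and *Fosb*, at 7.37, 45.1 and 7.44 against 0.932, 0.396 and 0.368 CPM, had the same high library, and their log2 changes went from -6.04 to -5.06 and from -5.11 to -3.69 without it.

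**Figure D2:**
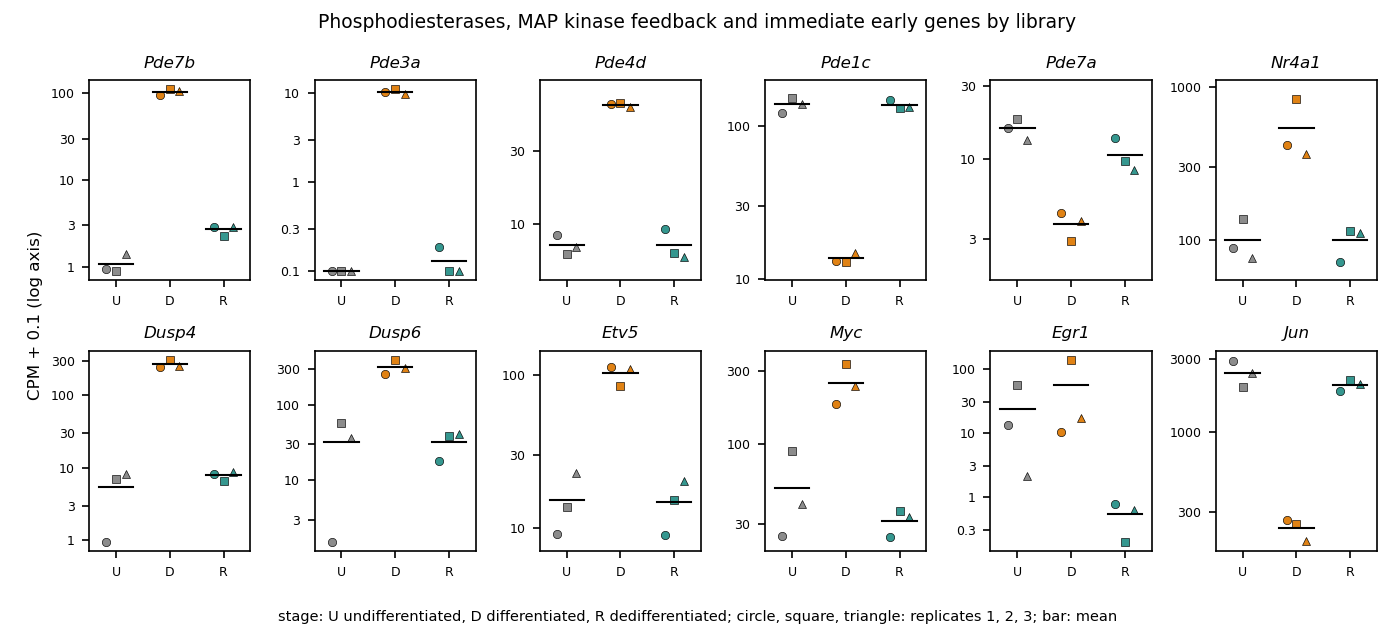
Level of 12 signalling genes in each library (y axis, CPM plus 0.1 on a log axis) at the 3 stages (x axis). Each point is 1 library, its shape gives the replicate and the bar is the mean of 3. *Pde7b*, *Pde4d*, *Dusp4* and *Nr4a1* are high under dbcAMP alone, while *Pde1c* and *Jun* are low under dbcAMP alone, and *Egr1* has 1 high differentiated library.

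Myelin genes did not fall as a group after withdrawal. Of 20 structural genes, 10 rose, 3 fell and 7 were not called (65.0% called; median 0.47). *Pmp22*, a compact myelin protein that is dosage-sensitive in Charcot-Marie-Tooth disease, was at 3629, 2386 and 2488 CPM in differentiated and 7247, 5386 and 5086 CPM in dedifferentiated libraries. Every dedifferentiated library was above every differentiated one, and undifferentiated cells had 796 CPM on average. Its log2 change was 1.06 (SE 0.26; edgeR adjusted p = 0.00704). *Drp2*, which belongs to the periaxin and dystroglycan complex, went from 37.2, 12.8 and 20.1 to 145, 60.3 and 64.9 CPM, and *Nfasc*, a cell adhesion gene of nodes and paranodes, from 3.39, 2.11 and 1.74 to 111, 45.7 and 40.1 CPM. In both, dedifferentiated replicate 1 stood well above the other dedifferentiated libraries, and without it the change in *Nfasc* was 4.17 in place of 4.78. *Ncmap*, a non-compact myelin protein, rose from 0.737, 0.452 and 1.08 to 36.3, 24.8 and 18.9 CPM, and *Cryab*, a small heat shock protein, rose by 1.56.

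The 3 that fell included *Pmp2*, a fatty acid carrier of myelin, from 2002, 1168 and 1313 to 532, 442 and 414 CPM (-1.69, SE 0.32; edgeR adjusted p = 0.00163), and *Cldn19*, the claudin of Schwann cell autotypic junctions, from 791, 502 and 526 to 308, 182 and 176 CPM. Both stayed above their undifferentiated means of 11.7 and 0.27 CPM. *Mbp*, myelin basic protein, at 4256, 2215 and 1886 against 5402, 2957 and 2641 CPM, and *Mag*, a myelin adhesion protein, at 550.4, 186 and 277 against 382, 256 and 236 CPM, overlapped between the stages. Their log2 changes were 0.40 and -0.21 (edgeR adjusted p = 0.394 and 0.704), with 95% intervals of -0.41 to 1.20 and -1.14 to 0.72, wide enough to hold a 2-fold change in *Mbp* in 1 direction and in *Mag* in the other. Replicate 1 was the highest of its stage in *Mbp*, *Mag* and *Pmp22* at both stages. In *Mbp* each dedifferentiated library was above the differentiated library of the same number, though the labels do not say that numbers pair the libraries. With a block for the replicate number, 12 of the 20 genes rose and 5 fell (median 0.47). Without dedifferentiated replicate 1, 10 of the 20 genes rose and 6 fell (median 0.20).

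The 2 regulators that cyclic AMP is best known to induce in Schwann cells went the other way from *Pmp22*. *Pou3f1* was at 1712, 1504 and 1289 CPM in differentiated and 214, 163 and 156 CPM in dedifferentiated libraries (log2 change -3.08, SE 0.22; edgeR adjusted p = 1.95e-06). *Egr2* went from 647, 781 and 645 to 176, 107 and 101 CPM (-2.43, SE 0.47; edgeR adjusted p = 0.00185). The stages did not overlap for either, and both were still above the undifferentiated means of 6.17 and 6.16 CPM. *Sox10*, the lineage factor of Schwann cells, was at 1060.4, 1084 and 938 and 1325, 1534 and 1478 CPM, a small rise of 0.49 (SE 0.11; edgeR adjusted p = 0.00403). *Nab1*, a corepressor of Egr proteins, rose by 1.40 and *Nfatc4* by 1.68. Over the 17 regulators, 6 rose, 3 fell and 8 were not called (52.9% called), with a median of -0.00 that changed sign between settings.

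**Figure D3:**
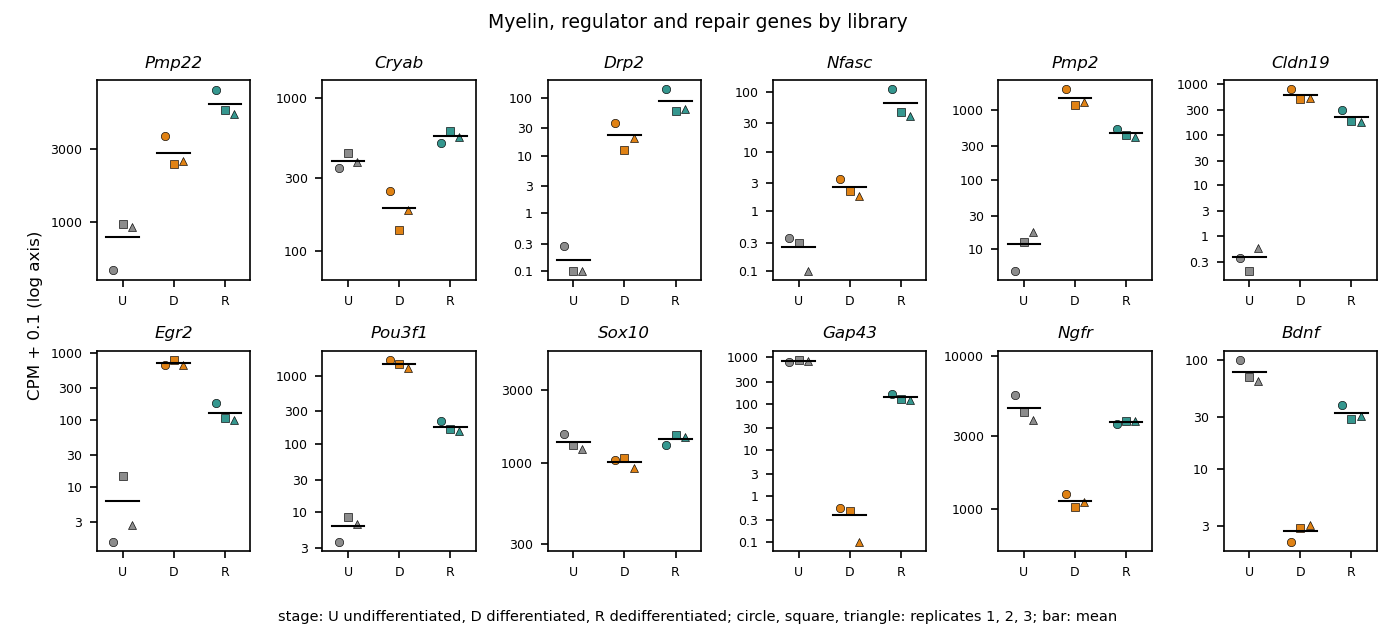
Level of 12 myelin, regulator and repair genes in each library (y axis, CPM plus 0.1 on a log axis) at the 3 stages (x axis). Each point is 1 library, its shape gives the replicate and the bar is the mean of 3. *Pmp22*, *Cryab*, *Drp2* and *Nfasc* are highest in dedifferentiated cells, *Pmp2*, *Cldn19*, *Egr2* and *Pou3f1* in differentiated cells, and *Gap43*, *Ngfr* and *Bdnf* are lowest in differentiated cells.

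Genes of repair and immature Schwann cells were called often, in both directions. Of 21, 12 rose, 6 fell and 3 were not called (85.7% called; median 0.75). Beside *Gap43* and *Jun*, *Ngfr*, the p75 neurotrophin receptor, went from 1254, 1026 and 1109 to 3569, 3754 and 3749 CPM (1.71, SE 0.14; edgeR adjusted p = 6.37e-06), with no overlap. *Cdh19*, a cadherin of Schwann cell precursors, rose from 50.4 to 288 CPM and *Runx2*, a bone and repair-cell transcription factor, from 40.9 to 205. *Sox2*, a factor of immature Schwann cells, rose by 1.66. *Notch1*, a receptor that opposes myelination, was among those that fell (-0.99), as were *Id2*, *Id4*, *Ednrb*, *Ncam1* and *Sox11*.

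Of 27 trophic factors and cytokines of repair, 13 rose, 6 fell and 8 were not called (70.4% called; median 0.88). The number that fell was 3 without differentiated replicate 1 and 1 among replicates 1 and 2 alone, and the median was 1.54 over the 18 members with at least 10 counts in all 9 libraries. *Bdnf*, which supports motor and sensory neurons, went from 2.06, 2.79 and 3.0 to 38.7, 28.8 and 30.9 CPM (log2 change 3.64, SE 0.23; edgeR adjusted p = 8.63e-07). *Fgf5* went from 0.589, 1.2 and 0 to 80.9, 91.6 and 91.5 CPM, *Pdgfb* from 1.77, 1.43 and 2.58 to 21.4, 22.9 and 24.1, and *Btc*, an EGF-family ligand, from 5.82, 3.01 and 4.86 to 42.3, 42.2 and 46.5. In each of these 4 genes all dedifferentiated libraries were above all differentiated ones by a factor of more than 7. *Gdnf*, *Clcf1* and *Cntf*, which also act on neurons, rose by 2.24, 2.20 and 1.88, and the chemokine gene *Cxcl12* by 2.35. The 6 that fell were led by *Ccl2*, the chemokine that recruits macrophages, at 23.1, 41.4 and 30.1 against 0.593, 0.198 and 0.589 CPM (-6.02, SE 0.46; edgeR adjusted p = 3.65e-06). *Nrg1* (-1.79), *Fgf2* (-1.11) and *Igf2* (-1.40) fell from low levels. *Vegfa* and *Tgfa* were not called, at -0.31 and -0.01 (edgeR adjusted p = 0.0676 and 0.94).

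Proliferation genes were lower in dedifferentiated cells, with support that varied between libraries. Of 33 DNA replication genes, 21 fell, 1 rose and 11 were not called (66.7% called; median -0.61), and of 30 mitosis genes 13 fell, none rose and 17 were not called (43.3% called; median -1.28). The CPM of the mitosis genes summed to 285, 481 and 658 in differentiated libraries and to 174, 237 and 240 in dedifferentiated libraries. These sums did not overlap, but the differentiated libraries were spread widely. *Mki67*, the Ki-67 antigen of cycling cells, was at 22.6, 57.1 and 81.9 and 13.4, 17.0 and 17.0 CPM and was not called (-1.77, SE 0.67; edgeR adjusted p = 0.0508). The B-type cyclin gene *Ccnb1* went from 14.6, 20.3 and 23.4 to 4.24, 6.84 and 5.45 CPM (-1.82, SE 0.51; edgeR adjusted p = 0.0133), and *Mcm3*, part of the replicative helicase, from 16.4, 29.0 and 36.5 to 9.24, 9.91 and 12.6 CPM (-1.37; edgeR adjusted p = 0.00145). *Pcna*, the polymerase clamp, fell (log2 change -0.38), and *Cdt1*, which licenses origins, was the 1 that rose (1.09). Among replicates 1 and 2, which share a sequencing project, 0 of the 30 mitosis genes and 4 of the 33 replication genes were called lower by edgeR (5 and 12 at an unadjusted p under 0.05), with medians of -1.04 and -0.41. Without differentiated replicate 3 these counts were 1 and 9, and without dedifferentiated replicate 1 they were 1 and 13. Without differentiated replicate 2 or dedifferentiated replicates 2 or 3, mitosis counts were 4, 1 and 5, and without differentiated replicate 1 the count was 19. The 6 libraries alone gave 19 and the sequencing project as a covariate 17. A block for the replicate number gave 23 of the 30 mitosis genes and 22 of the 33 replication genes.

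Among regulators of the G1 phase, both cyclins and kinase inhibitors were among the genes that fell. Of 19, 9 fell, 4 rose and 6 were not called (68.4% called; median -0.54). The D-type cyclins *Ccnd2* and *Ccnd3* went from 191 to 96.1 and from 444 to 183 CPM on average, beside *Ccnd1*, and *Ccne1* changed by -2.07. The inhibitor *Cdkn1a*, p21, went from 85.0, 101 and 89.3 to 14.4, 27.0 and 20.3 CPM (-2.16, SE 0.18; edgeR adjusted p = 6.32e-06). *Cdkn1b*, p27, fell from 752 to 346 CPM, and *Cdkn1c*, p57, changed by -1.69. The inhibitor gene *Cdkn2b*, p15, rose from 19.5, 23.3 and 27.0 to 56.6, 49.1 and 51.9 CPM.

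The translation machinery fell as a block, by small amounts. Of 63 cytosolic ribosomal protein genes, 52 fell, none rose and 11 were not called (82.5% called; median -0.39). *Rpl6*, of the large subunit, went from 775, 828 and 773 to 391, 501 and 474 CPM (-0.80, SE 0.10; edgeR adjusted p = 0.000117) and *Rps18*, of the small subunit, from 694, 769 and 698 to 346, 456 and 433 CPM (-0.81; edgeR adjusted p = 0.000143). Their CPM summed to between 30136 and 32582 in differentiated libraries and to 19680, 25620 and 25128 in dedifferentiated libraries, where replicate 1 was lowest. Without that library 41 of these genes fell and 2 rose (median -0.27), and among replicates 1 and 2 alone 27 fell. Leaving out differentiated replicate 2 or differentiated replicate 3 gave 38 that fell in either case (medians -0.37 and -0.39). Ribosome biogenesis moved further, with 23 of 28 genes lower, none higher and 5 not called (82.1% called; median -0.72). *Ddx21*, an RNA helicase of the nucleolus, went from 287, 315 and 303 to 126, 139.6 and 140.0 CPM (-1.16, SE 0.083; edgeR adjusted p = 2.28e-06), and *Pes1*, *Nolc1* and *Ncl* changed by -0.97, -1.03 and -0.69. *Myc*, a known activator of such genes, fell in the same libraries, as given above, and a link between these falls was not tested. *Eef1a1* fell (log2 change -0.37; edgeR adjusted p = 0.0199). Ribosomal protein genes and *Eef1a1* have many processed copies, and how the counting shared reads with these is not given in the sources used here.

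**Figure D4:**
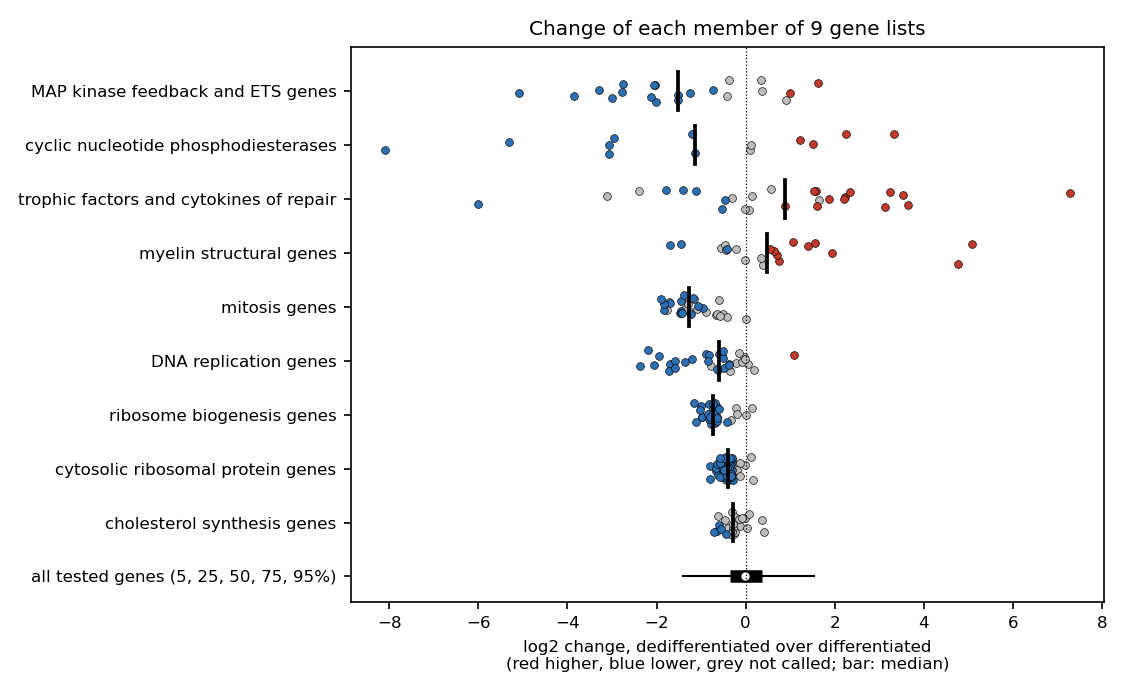
Log2 change (x axis, dedifferentiated over differentiated) of every tested member of 9 gene lists (y axis). Points are genes coloured by their edgeR call, black bars are list medians, and the bottom row gives the 5th, 25th, 50th, 75th and 95th percentiles of all tested genes (-1.42, -0.36, -0.01, 0.37 and 1.53). Ribosomal genes cluster at small negative values, while phosphodiesterases and trophic factors reach far to both sides.

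The lists of lipid and energy metabolism differed in how often their genes were called. Of 24 cholesterol synthesis genes 5 fell, none rose and 19 were not called, so that 20.8% were called against 46.4% of all genes (median -0.28). *Cyp51*, a sterol demethylase, fell (log2 change -0.71, SE 0.16; edgeR adjusted p = 0.00498), while *Hmgcs1* was not called (-0.62; edgeR adjusted p = 0.066). The count of 5 was 1 to 9 under other settings, being 9 without differentiated replicate 2 and 2 without differentiated replicate 1, differentiated replicate 3, dedifferentiated replicate 2 or dedifferentiated replicate 3. Of 20 fatty acid synthesis genes, 9 fell, 1 rose and 10 were not called (median -0.55). *Elovl6*, an elongase, went from 103, 112 and 123 to 44.9, 41.3 and 43.7 CPM (-1.38; edgeR adjusted p = 7.46e-06), and *Me1*, malic enzyme, was the 1 that rose (1.23). *Scd2*, a desaturase, was not called (-0.34; edgeR adjusted p = 0.259). Of 20 galactolipid and sphingolipid genes, 4 rose, 2 fell and 14 were not called (30.0% called; median 0.11), and leaving out 1 library gave 2 to 4 in either direction. *Sgms1*, a sphingomyelin synthase, fell from 285, 284 and 317 to 107, 98.5 and 108 CPM and *Gal3st1*, which makes sulfatide, fell too (-0.85). *Ugt8*, which makes galactosylceramide, had 445, 299 and 332 and 498, 330.1 and 335 CPM and was not called.

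Of 26 glycolysis and lactate genes, 9 fell, 3 rose and 14 were not called (46.2% called; median -0.14), and leaving out 1 library gave 1 to 5 that rose. Both lactate dehydrogenase genes fell, *Ldha* from 1418, 1349 and 1374 to 634, 807 and 833 CPM and *Ldhb* from 292, 279.7 and 251 to 144, 148 and 147 CPM, as did the monocarboxylate carrier gene *Slc16a1* (-1.03). *Gapdh* was not called (-0.06). Among 42 oxidative phosphorylation subunits 14 fell, 4 rose and 24 were not called (42.9% called; median -0.17), with *Atp5d* at -0.77 and *Cox5b* at 0.70 as examples in either direction. Of 28 genes of the unfolded protein response and of ATF4, 12 fell and 5 rose (60.7% called; median -0.09). *Ddit4*, an inhibitor of mTORC1, went from 416, 212 and 343 to 25.0, 41.2 and 38.2 CPM (-3.22, SE 0.41; edgeR adjusted p = 0.00011), *Phgdh*, of serine synthesis, fell (log2 change -1.06), and *Xbp1* rose by 0.69. In the lysosome and autophagy list 7 of 33 rose and 5 fell (36.4% called; median 0.07). *Lipa* and *Npc2*, both of lysosomal cholesterol handling, were the clearest, with log2 changes of 3.42 and 1.02.

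Cytoskeletal and adhesion genes rose more often than they fell. Of 21 stress fibre and focal adhesion genes, 11 rose, 4 fell and 6 were not called (71.4% called; median 0.55), with 2 falling without differentiated replicate 2. *Pxn*, paxillin, went from 196, 157 and 146 to 484, 574 and 542 CPM (1.68, SE 0.13; edgeR adjusted p = 4.49e-06), and *Tln1*, *Zyx* and *Flna*, which code for talin, zyxin and filamin A, rose by 1.10, 1.17 and 1.08. Of 18 genes of YAP, TAZ and TEAD, the transcriptional arm of the Hippo pathway, 8 rose, 2 fell and 8 were not called (55.6% called; median 0.35). *Axl*, a receptor tyrosine kinase, went from 69.7, 84.5 and 108 to 324, 391 and 408 CPM and *Frmd6* from 110.2, 113 and 128 to 361, 424 and 455 CPM. The classic target *Ctgf*, at 479, 703 and 932 and 437, 444 and 437 CPM, was not called (-0.68; edgeR adjusted p = 0.179), and *Wwtr1*, which encodes TAZ, fell (log2 change -0.78).

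Collagen genes changed in both directions. Of 17, 8 rose, 3 fell and 6 were not called (64.7% called; median 0.71, or 0.25 without dedifferentiated replicate 1). The fibrillar *Col1a1* went from 7148, 5206 and 7406 to 12638, 9776 and 9818 CPM (0.71, SE 0.17; edgeR adjusted p = 0.00675) and *Col5a2* from 1100.3, 1186 and 1444 to 3373, 3155 and 3136 CPM (1.37), while *Col1a2* was not called (-0.16). The Schwann cell collagen *Col5a3* fell from 4779 ± 547 to 2587 ± 71.0 CPM (SD, n = 3) and the basement membrane collagen *Col4a1* also fell (-0.66). Of 19 laminins, integrins and related matrix genes, 5 rose, 6 fell and 8 were not called (57.9% called; median 0.04). The laminin genes *Lamc1* and *Lama4*, of the Schwann cell basal lamina, fell (log2 changes -0.89 and -0.83). *Tnc*, tenascin C, a matrix protein of injured nerve, went from 118, 60.0 and 103 to 1060.4, 1061 and 1074 CPM (3.51, SE 0.22; edgeR adjusted p = 9.5e-07), still under the undifferentiated 4417 CPM. Integrin genes *Itga1* and *Itgb5* rose by 2.05 and 1.15.

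Of 24 matrix proteases and inhibitors, 10 rose, 6 fell and 8 were not called (66.7% called; median 0.21). *Serpine2*, protease nexin 1, went from 91.5, 60.2 and 65.7 to 1171, 1065 and 1086 CPM (log2 change 3.93, SE 0.16; edgeR adjusted p = 5.02e-08). *Mmp19* rose by 1.72. *Adam17*, a sheddase that cuts neuregulin and ErbB ligands, fell from 596, 609.9 and 609.6 to 213, 200.1 and 215 CPM (-1.53, SE 0.095; edgeR adjusted p = 8.04e-07), and its replicates differed little at either stage. In the IGF list 3 of 14 rose and 5 fell (57.1% called; median -0.07). *Igfbp7* went from 83.4, 60.1 and 70.2 to 1701, 2241 and 2071 CPM (4.81; edgeR adjusted p = 6.9e-08) and *Igfbp3* rose by 2.62. *Igfbp4*, the substrate of the protease encoded by *Pappa*, fell from 9.95, 12.8 and 8.88 to 0.763, 0.594 and 0.368 CPM, and *Igf2r* and *Irs2* fell (log2 changes -1.79 and -1.27).

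Of 31 Wnt pathway genes, 8 rose, 13 fell and 10 were not called (67.7% called; median -0.26). *Nkd1*, a feedback inhibitor that Wnt signalling induces, went from 639, 894 and 601 to 13.6, 9.61 and 7.59 CPM (-6.12, SE 0.27; edgeR adjusted p = 9.62e-08). *Lgr5*, a receptor of R-spondins, went from 27.4, 40.3 and 63.6 to 0.678, 1.19 and 1.33 CPM and *Dkk3* from 96.4, 121 and 89.0 to 9.92, 7.13 and 8.03 CPM. After withdrawal all 3 lay far nearer to their undifferentiated means of 2.08, 0.271 and 7.13 CPM than to their level under dbcAMP. The ligand genes *Wnt5a* and *Wnt11* fell (log2 changes -3.48 and -3.79). In contrast *Nkd2*, the paralogue of *Nkd1*, rose from 149, 163 and 179 to 432, 761 and 752 CPM (1.99; edgeR adjusted p = 1.83e-05) and *Sfrp1*, a secreted antagonist, by 1.32.

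Notch genes were called at about the rate of all genes, with 3 of 16 higher, 4 lower and 9 not called (43.8% called; median -0.10). *Heyl*, a target of Notch, went from 0.0737, 0 and 0.12 to 29.5, 16.7 and 17.8 CPM, or 3 counts against 759. *Lfng*, which modifies Notch receptors, rose by 1.68. *Nrarp*, a feedback target, went from 60.8, 25.5 and 40.2 to 5.76, 4.36 and 5.67 CPM (-2.99; edgeR adjusted p = 2.52e-05), so that targets of the pathway moved both ways. Of 29 TGF-beta and BMP genes, 10 rose, 4 fell and 15 were not called (48.3% called; median 0.36), and 2 fell without differentiated replicate 3, dedifferentiated replicate 1 or dedifferentiated replicate 2. *Ltbp1* went from 8.1, 5.27 and 6.06 to 53.8, 43.8 and 47.2 CPM (2.90, SE 0.16; edgeR adjusted p = 3.97e-07) and *Tgfb1* from 28.2, 29.4 and 33.4 to 65.0, 109 and 103 CPM (1.60), while *Tgfbr2* and *Tgfbr3*, receptor genes, were not called (0.28 and -0.14).

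The receptors of the neuregulin in the medium were called in opposite directions, each by less than log2 1. *Erbb3* went from 1267, 1273 and 1168 to 994, 968 and 1028 CPM (-0.31; edgeR adjusted p = 0.00814) and *Erbb2* from 143, 129 and 139.5 to 219, 236 and 224 CPM (0.72; edgeR adjusted p = 5.78e-05). The docking protein gene *Gab1* rose by 0.81. Over the 15 genes of this list, 5 rose, 5 fell and 5 were not called (66.7% called; median -0.01). Leaving out single libraries gave 3 or 4 higher and 3 to 5 lower.

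Guidance, adhesion and channel genes, by which glia and axons meet, were called in both directions. Of 37 axon guidance genes, 15 rose, 11 fell and 11 were not called (70.3% called; median 0.13). *Sema3e* went from 5.67, 5.05 and 4.62 to 181, 117 and 137 CPM (4.83, SE 0.18; edgeR adjusted p = 3.34e-08) and *Sema4f*, a semaphorin of Schwann cell and axon contact, from 15.5, 21.8 and 27.9 to 231, 162 and 157 CPM. *Sema3g* fell from 784, 918 and 912 to 87.0, 203 and 196 CPM and the netrin receptor gene *Unc5b* also fell (-1.81). Of 19 cadherins, 8 rose, 5 fell and 6 were not called (68.4% called; median 0.35, or 0.08 without dedifferentiated replicate 1), *Pcdh20* and *Cdh19* among the risers. *Cdh20* was at 0, 0 and 0.0653 CPM in undifferentiated, 0.368, 0.0753 and 0 in differentiated and 8.31, 6.84 and 7.29 in dedifferentiated libraries. Of 26 ion channels, 7 rose, 6 fell and 13 were not called (median 0.16). *Kcna1* and *Kcna2*, the potassium channels that cluster beside nodes in nerve, were at 1.25, 0.979 and 0.78 and 2.21, 0.527 and 1.02 CPM in differentiated libraries and at 18.6, 8.82 and 11.9 and 21.4, 8.92 and 11.0 CPM in dedifferentiated libraries. The undifferentiated libraries had 0 counts of either, where 3 counts correspond to 0.196 to 0.288 CPM. *Cacna1h*, a T-type calcium channel, fell from 71.7, 63.9 and 65.8 to 9.15, 8.72 and 8.25 CPM, and *Kcnd3* rose from 7.96, 6.78 and 9.79 to 45.8, 78.3 and 75.3. *Scn7a*, a sodium channel of glia, was not called (1.19, SE 0.63; edgeR adjusted p = 0.143).

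**Figure D5:**
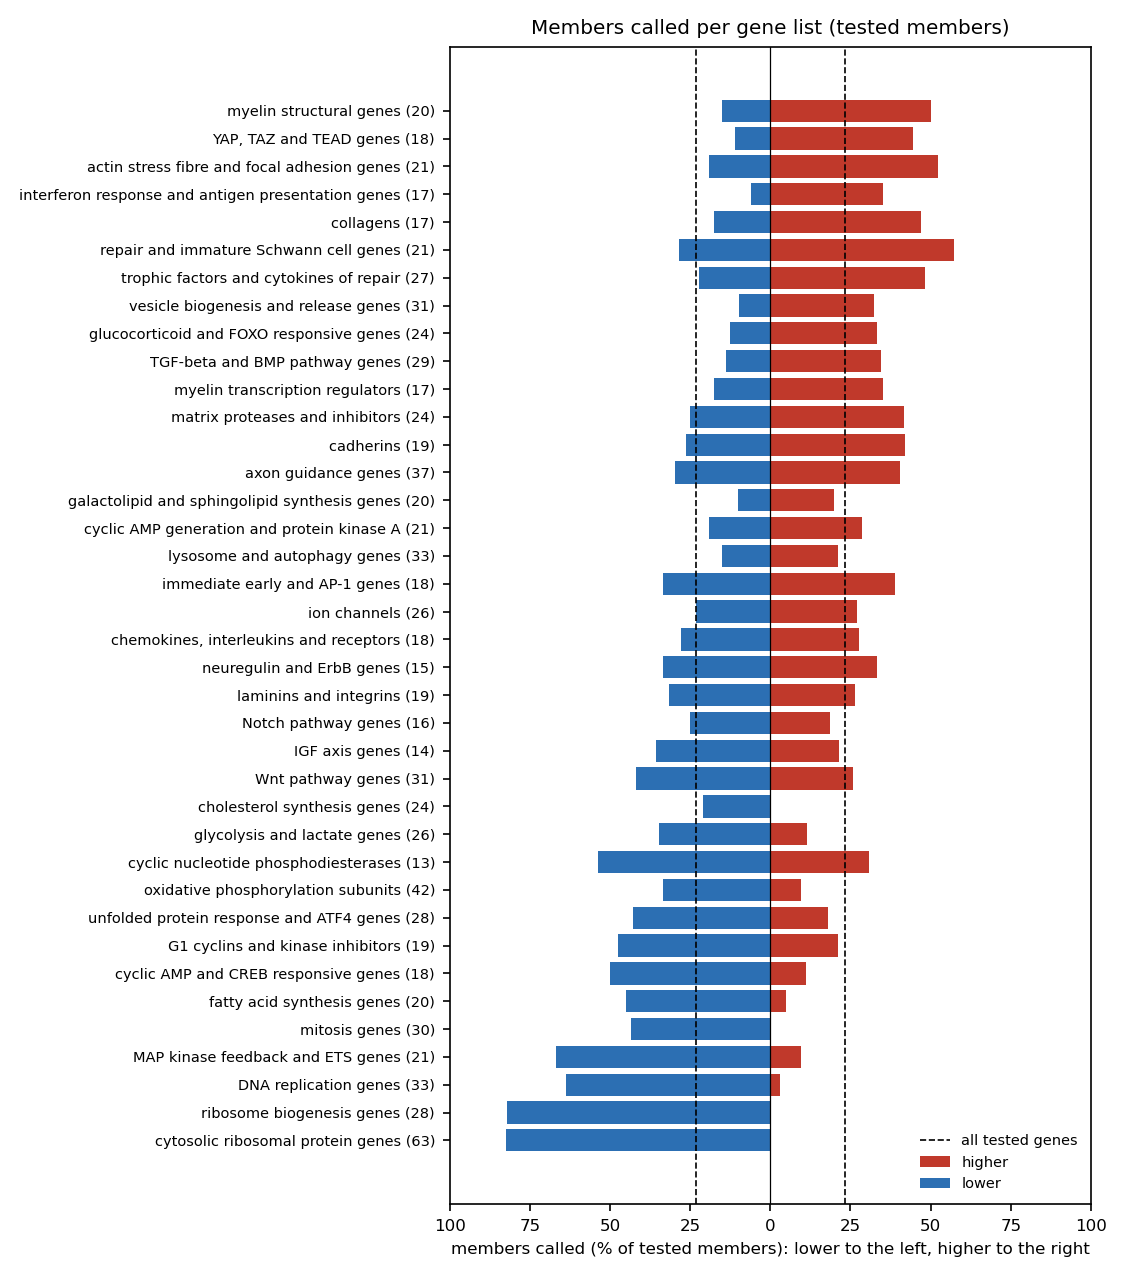
Members called lower (blue, left) and higher (red, right) in dedifferentiated cells as a percentage of tested members (x axis) for each of 38 gene lists, with the tested number in brackets. Dashed lines mark the 23.2% of all tested genes called in each direction. Ribosome lists lie far past the left line with no member to the right, and cholesterol synthesis reaches neither line.

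Among the remaining lists, 6 of 17 interferon and antigen presentation genes rose and 1 fell (41.2% called; median 0.54). *B2m*, part of MHC class I, went from 260.0, 294 and 417 to 504, 708 and 864 CPM (1.10; edgeR adjusted p = 0.00427), and *Stat2* and *Irf9*, which transmit interferon signals, rose by 0.88 and 1.06. Of 18 chemokines, interleukins and receptors, 5 rose, 5 fell and 8 were not called (55.6% called; median 0.23), and 3 fell without differentiated replicate 1 or dedifferentiated replicate 3. Of 24 glucocorticoid and FOXO responsive genes, 8 rose, 3 fell and 13 were not called (45.8% called; median 0.34). This median was 0.08 without dedifferentiated replicate 3, 0.16 without differentiated replicate 3, 0.20 without differentiated replicate 2 and 0.08 among replicates 1 and 2 alone. *Fkbp5*, a glucocorticoid target, went from 19.0, 18.8 and 21.6 to 70.2, 68.9 and 70.3 CPM (1.82; edgeR adjusted p = 9.32e-07) and *Fbxo32*, a FOXO target, fell (log2 change -1.67). In the list of vesicle biogenesis and release, 10 of 31 rose and 3 fell (41.9% called; median 0.13). The tetraspanin genes that mark extracellular vesicles moved differently, with *Cd9* at 228, 203 and 216 then 711, 591 and 569 CPM (1.53) and *Cd82* at 1.46, against *Cd81* at 1412, 1378 and 1304 then 886, 871 and 824 CPM (-0.67).

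Markers of other cell types were examined in the same libraries. In bulk RNA, fewer cells of a type cannot be told apart from less of its RNA per cell. Of 9 Schwann cell markers, 7 rose, 1 fell and 1 was not called (88.9% called). Their CPM summed to 8517 to 11395 in differentiated and 18569 to 21980 in dedifferentiated libraries. Of 12 macrophage and leukocyte markers 4 were at 0 in all 6 libraries (*Aif1*, *Adgre1*, *Cx3cr1* and *Cd163*), and the list summed to 4.20 to 5.35 CPM in differentiated and 2.21 to 4.24 CPM in dedifferentiated libraries. Of 12 fibroblast markers *Lum*, *Cd34* and *Tcf21* were at 0, and the sums of 12807 to 16397 and 16083 to 19619 CPM came mostly from *Col1a1* and *Col1a2*, which Schwann cells also express. Of 10 endothelial markers *Cdh5* and *Cldn5* were at 0, and sums were 9.21 to 11.9 and 17.5 to 28.1 CPM. Of 9 pericyte and smooth muscle markers *Rgs5* and *Kcnj8* were at 0, and sums were 543 to 788 and 322 to 339 CPM. The 10 neuron markers summed to 1435 to 1976 CPM in differentiated and 388 to 520 CPM in dedifferentiated libraries. These were mainly the neurofilament genes *Nefl*, at 1299, 1009.8 and 912 then 255, 176 and 179.6 CPM, and *Nefm*, at 640.3, 603 and 483 then 207, 206 and 167 CPM. The 5 melanocyte markers in the table summed to 27.2 to 46.9 and 22.3 to 40.6 CPM, with *Mlana* and *Slc45a2* at 0. These sums hide opposite changes, since of the 2 markers tested 1 rose (log2 change 1.00) and *Tyrp1* fell (-6.79). The 9 oligodendrocyte markers summed to 96.4 to 112 and 79.0 to 126 CPM, with *Mobp* and *Olig2* at 0. The part of other cell types in the changes above was not tested.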

How the data were processed

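Messenger RNA was measured in 9 cell libraries, 3 per stage, prepared from 10 ng of total RNA with a directional kit, per the labels' protocols. The deposited unit is the estimated count of reads for each gene. The table's name points to salmon as the authors' tool, and no version, build or annotation is given in the sources used here. The submitters' processing notes also name STAR, HISAT2, Trim Galore and DESeq2 1.26.0, without their roles. In the 6 libraries compared, 1.14% of values had decimals, and rounding was applied before testing. Of 206 tested genes named, 7 had fractional values, which arise when reads are shared between genes (*Abcb4*, *Cxcl12*, *Gnas*, *Mbp*, *Nfasc*, *Scd2* and *Vegfa*), so their levels are less certain.

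Columns were assigned by stage and library code, and replicate numbers are those of the sample titles, from which the numbers in the column names differ. All 9 libraries entered 1 quasi-likelihood fit in edgeR 4.0.16 (R 4.3.3) with filterByExpr at a minimum count of 10 and TMM scaling, and dedifferentiated was compared with differentiated. Standard errors are the log2 change divided by the square root of F, and CPM use TMM-scaled library sizes. Intervals at 95% of count ratios and the floor of 3 counts cover counting error only, while those of log2 changes come from the fit and include the spread between libraries. On simulated counts over 10372 genes, 200 genes were changed in each of 5 draws. In these draws 86.4% of 2-fold and 97.8% of 4-fold changes were called, and 5.70% of calls were false. The simulation gave genes of like level the same spread, held no replicate or project effect, and changed far fewer genes than were called here. Its rates need not hold for these data.

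The 38 gene lists and 8 marker lists held 1220 entries, of which 1144 matched, 11 by an older symbol. The comparison and the lists were chosen with earlier results of these data known. Named genes were, among called genes without overlap, the 10 of smallest p and the 10 of largest change in each direction (mean of at least 10 CPM), the 5 of largest CPM difference, and in each list up to 4 of smallest p and 2 of highest CPM. *Ccne1*, *Cdkn1c*, *Clcf1*, *Cldn19*, *Cntf*, *Drp2*, *Dusp7*, *Ednrb*, *Egr2*, *Egr3*, *Epha2*, *Etv4*, *Fgf2*, *Fosb*, *Gdnf*, *Id2*, *Id4*, *Igf2*, *Igfbp3*, *Kcna2*, *Mag*, *Mbp*, *Ncam1*, *Nefl*, *Nefm*, *Nrg1*, *Pde2a*, *Pde4b*, *Pde5a*, *Pde7a*, *Plaur*, *Pmp2*, *Sox11*, *Sox2*, *Wnt11* and *Wnt5a* were named outside this rule, from the lists, after their values were seen. A few genes that the rule names are not reported here. Promoter motifs were counted in RefSeq sequences of GRCr8. Alternatives were the 6 libraries alone, a replicate block, the sequencing project, other scalings, filters and tests, and leaving out each library.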

Additional observations from a re-analysis of the deposited data

How the results depend on the processing

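The number of genes called, 4809, ranged from 4263 to 4855 with the 6 libraries alone, the sequencing project as a covariate, DESeq2's size factors, library size alone, no 10 most abundant genes, DESeq2's Wald test, no filter on low counts, and at least 10 counts in all libraries. Leaving out 1 library gave 3916 to 4513 calls, 1981 to 2333 higher and 1935 to 2180 lower, and scaling by library size alone shifted the median of all genes by -0.0133. Within the project of replicates 1 and 2, with 2 libraries a stage, 2606 genes were called (1360 higher, 1246 lower), and 2582 of them were called with all libraries. A test of a log2 change above 1 (glmTreat) called 731 (422 higher, 309 lower), since it asks for a larger change. No tested gene named in the report and called there changed direction. Of 3239 pairs of a named gene and a setting, 26 lost the call, 16 of them within the project of replicates 1 and 2, 19 gained one, and 16 uncalled values moved. Where these are not explained by fewer samples, the cause was not tested.

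The sample titles number the replicates, and nothing in them ties a number to one culture. As a check of pairing, the deviations of libraries around their stage mean correlated at 0.0280 to 0.304 over 9 same-numbered pairs, with 7 of 9 over 0.1. Not every pair passed, so the numbers were not taken to pair the libraries, although same-numbered libraries were sequenced in the same project. Of 9 libraries, 8 correlated best with their own number, a hint from the data and not from the design. With the replicate block 5031 genes were called (2504 higher, 2527 lower), 4691 of them in both fits, and 23 of 30 mitosis genes fell.

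List medians close to 0 changed sign between settings for the myelin regulators, laminins and integrins, neuregulin and ErbB, Notch, unfolded protein response, galactolipid, ion channel and immediate early lists. The CRE shares were 4.43% and 2.16% in the 250 bases before the start and 4.68% and 2.32% over any annotated start, the last chosen after seeing the data. The check on genes changed by more than log2 1 was void, since 75.7% and 76.3% of them had a promoter. Depth limited values under about 0.3 CPM, which 3 counts can give.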

Other observations

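Some called genes had no count at all at one of the stages. In differentiated libraries 11 genes that rose had 0 counts over the group, where 3 counts over the group correspond to 0.0690 CPM, and in dedifferentiated libraries 7 genes that fell had 0 counts, where 3 counts correspond to 0.0846 CPM. The genes named here were chosen after their values were seen. *Chrdl2*, a secreted antagonist of BMPs, was at 14.1, 21.0 and 15.7 CPM in undifferentiated, 0 in differentiated and 1.44, 1.98 and 3.46 CPM in dedifferentiated libraries, which is at least 34.3-fold higher after withdrawal. *Apba2*, an adaptor of synaptic proteins, was at 6.71, 2.96 and 4.7, then 0, then 2.12, 1.58 and 0.442 CPM, at least 19.2-fold higher. In the other direction *Dpp6*, an auxiliary subunit of potassium channels, was at 2.28, 2.41 and 1.44 CPM under dbcAMP and at 0 afterwards, at least 23.6-fold lower. *Cx3cl1*, the chemokine fractalkine, at 2.8, 0.904 and 1.74 CPM, was also at 0 after withdrawal, at least 21.5-fold lower. *Aqp3*, a water and glycerol channel, at 1.11, 3.84 and 0.84 CPM with differentiated replicate 2 the highest, was at 0 as well. All of these bounds cover counting error only.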
